A study of Mus musculus with 42 samples.

Results

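The comparison described here is that of total kidney RNA at day 5 after unilateral ureteral obstruction (UUO) with total RNA of contralateral kidneys in mice. Its members were chosen by the label of each library: 14 of the 42 libraries in the series were labelled total kidney and either day 5 or contralateral, with 7 libraries in each group (4 male and 3 female). All mice were labelled as 12 weeks old. UUO is the surgical ligation of 1 ureter, and the kidney on the other side served as the control. No library of the series was labelled as coming from an unoperated mouse. The labels did not give the day on which a contralateral kidney was taken, nor whether a contralateral and an obstructed kidney came from the same mouse. The other libraries of the series were 7 of total RNA at day 10 and 21 labelled proximal tubule (PT), which hold RNA pulled down with tagged ribosomes by translating ribosome affinity purification (TRAP). Per the labels' protocol, renal cortex was taken after perfusion with PBS, beads were added to a lysate cleared of mitochondria, and an unbound fraction was also kept. The labels did not say whether total kidney RNA was that unbound fraction. Strain, the driver of the ribosome tag and whether the libraries of a group came from separate animals were not given in the sources used here. The p-values below therefore measure the spread between these libraries, which may in part be technical.

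The renal cortex consists mostly of proximal tubules, whose cells reclaim filtered glucose, phosphate, amino acids and proteins, make glucose and burn fatty acids. Obstruction stops urine flow, stretches the tubule and is widely used as a model of tubular injury, inflammation and interstitial fibrosis. In injured kidneys the tubule cells are known to give up part of their transport functions and to make adhesion molecules and chemokines, while leukocytes enter and fibroblasts lay down collagen. In bulk RNA, fewer cells of a type and less RNA per cell cannot be told apart, and this holds for every level below.

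The contralateral libraries held 10441550 to 22516129 counted reads (median 18529891) and the day 5 libraries 10195584 to 23780275 (median 15956415). Levels are given in CPM, the usual unit of read counts divided by library size, with library sizes scaled by the trimmed mean of M-values (TMM). CPM is not corrected for gene length, so it serves to compare 1 gene between libraries and not different genes with each other. The libraries were those of kidney by their markers, since Lrp2, Slc34a1, Umod and Aqp2 were all present in the contralateral group at a median of 590.1, 2219, 668 and 19.7 CPM. The TMM factors were 0.727 to 0.900 in the contralateral and 0.985 to 1.25 in the day 5 group. 3 day 5 libraries stood apart. Male day 5 libraries 1 and 2 had Lars2 at 2188 and 2064 CPM, against 6430 to 10754 CPM in the other day 5 libraries. Female day 5 library 3 had the lowest share of reads on mitochondrially encoded genes, 0.663%. In the contralateral group, female library 3 had Lars2 at 20107 CPM, against 5537 to 11741 CPM in the others. It also had the fewest genes detected (18519) and the highest mitochondrial share, 4.85%, and was left out only on its own. Numbers of genes called at day 5, between sexes, between days and between PT and total RNA were recomputed without the 3 day 5 libraries. So were the 44 counts of list members that were 5 or more. Those that moved by over 1.5 times are named beside the count.

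Of 16782 genes tested, 5453 (32.5%) passed an adjusted p under 0.05 together with at least a 2-fold difference, the mark for a call throughout. Of these, 3220 genes (19.2%) were higher at day 5 and 2233 (13.3%) were lower. These shares are the background against which the gene groups below are read, and the median log2 difference of all tested genes was 0.04. A difference of at least 4-fold was reached by 1679 of the higher and 598 of the lower genes, and one of at least 16-fold by 287 and 63. For 28.8% of the tested genes the 7 day 5 libraries did not overlap the 7 contralateral ones. With the libraries scaled by their totals alone, the higher genes made up 80.4% of the calls instead of 59.1%, and the median of all genes became 0.48. Log2 differences are given with their standard error, for the mean of the male and the female difference at equal weight, with 7 libraries on each side and adjusted p-values from edgeR's quasi-likelihood test.

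**Figure D1:**
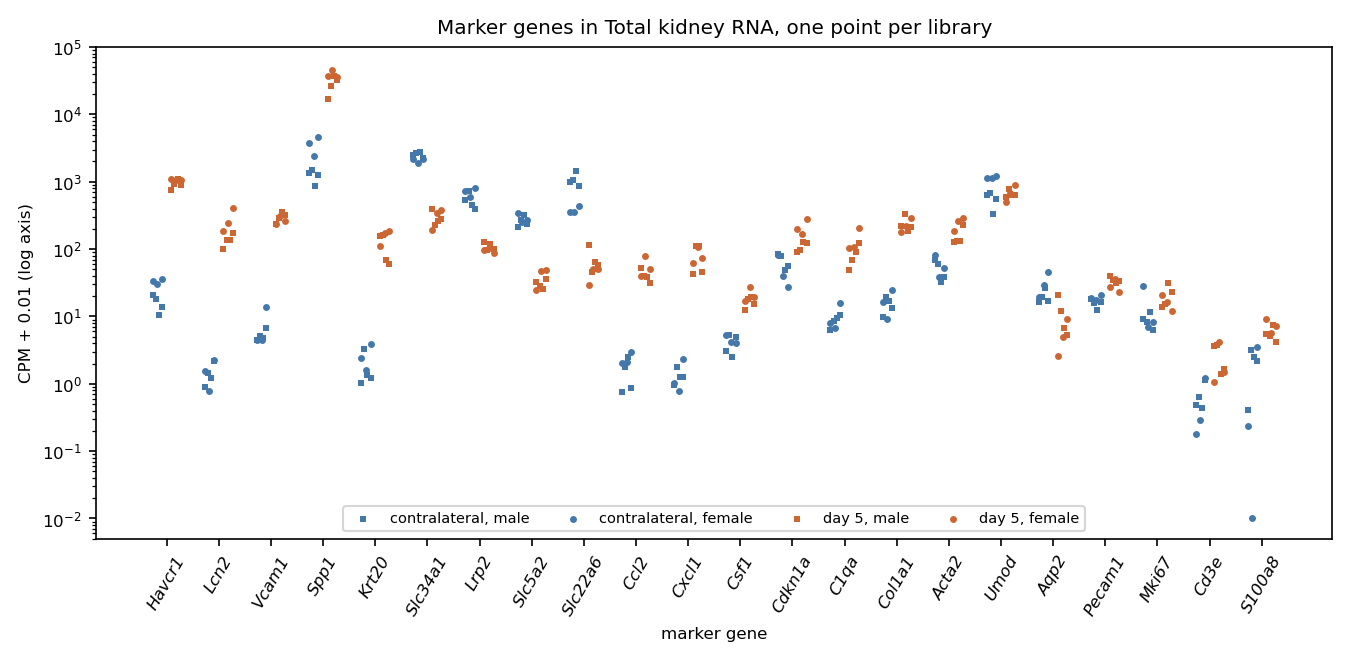
Levels of 22 marker genes in the 14 libraries, as CPM plus 0.01 on a log axis; each point is 1 library, contralateral in blue and day 5 in orange, squares male and circles female. Havcr1, Lcn2, Vcam1 and Krt20 are separated by a wide gap, whereas Umod, Aqp2, Cd3e and Mki67 overlap.

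Genes of tubule injury and repair rose as a group. Of the 37 tested, 31 were called higher and none lower, with a median log2 difference of 2.70. Havcr1 encodes KIM-1, a phosphatidylserine receptor of injured proximal tubule cells, and it ran from 10.6 to 35.9 CPM (median 21) in the contralateral libraries and from 754 to 1086 CPM (median 1061) at day 5. The log2 difference was 5.42 ± 0.26 (adjusted p = 1.06e-13), and the groups did not overlap. Lcn2, the siderophore-binding protein NGAL, ran from 0.767 to 2.21 CPM (median 1.42) and from 99.0 to 405 CPM (median 175), a log2 difference of 7.08 ± 0.32. Vcam1, a leukocyte adhesion molecule, ran from 4.39 to 14 CPM (median 4.78) and from 232 to 349 CPM (median 293), a log2 difference of 5.50 ± 0.26. For both genes the groups were again fully separated. Spp1, the secreted phosphoprotein osteopontin, gained more CPM than any other tested gene, and ran from 876 to 4588 CPM (median 1493) and from 16958 to 44811 CPM (median 35671), a log2 difference of 3.98 ± 0.27. Krt20, a keratin, ran from 1.00 to 3.93 CPM (median 1.6) and from 59.2 to 186 CPM (median 157), with a log2 difference of 5.97 ± 0.55.

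The transcription factor Sox9, which marks regenerating tubule, rose by 3.89 on the log2 scale, and the hyaluronan receptor Cd44 rose by 5.32. The intermediate filament genes differed in size, with 1.25 for Krt8, 2.42 for Krt18, 4.04 for Krt19 and 2.62 for Vim. The EGF receptor ligand Areg rose by 5.92, the cytokine Lif by 4.94 and the small proline-rich gene Sprr2f by 6.57. The chaperone gene Clu rose from 395 ± 131 to 2641 ± 1331 CPM (mean and SD), a log2 difference of 2.70 ± 0.23. The 6 tested members of the list that were not called were Krt7 (0.27), Prom1 (-0.51), Itgb6 (0.74), Hmox1 (0.51), Hbegf (0.60) and Ltbr (-0.11). Of the 37, Prom1 and Hbegf were called for a difference between the sexes. Hbegf, another EGF receptor ligand, had log2 differences of -0.47 in males and 1.66 in females, and Prom1 0.41 and -1.43.

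Carriers of the proximal tubule fell together. Of 47 tested, 36 were lower, 0 were higher and the median log2 difference was -1.73. The sodium-phosphate cotransporter Slc34a1 ran from 1892 to 2727 CPM (median 2219) in the contralateral libraries and from 194 to 390.4 CPM (median 284) at day 5, a log2 difference of -2.95 ± 0.21. Slc5a2, the glucose cotransporter SGLT2, ran from 214 to 344 CPM (median 268) and from 24.7 to 48.4 CPM (median 32.7), a log2 difference of -2.96 ± 0.21. Of its exon bases 20.6% overlap a gene on the other strand, and the reads cannot be told apart without strand. The organic anion transporters take up drugs and toxins from the blood. Slc22a6 (OAT1) ran from 353 to 1460.3 CPM (median 876) and from 29.6 to 114 CPM (median 51.4), a log2 difference of -3.54 ± 0.25, and Slc22a8 (OAT3) ran from 190.1 to 609 CPM (median 398) and from 7.70 to 23.3 CPM (median 15.7), a log2 difference of -4.62 ± 0.43. In all 4 genes the lowest contralateral library lay above the highest day 5 library. The amino acid transporter Slc6a19 fell by 3.52 on the log2 scale and the dicarboxylate transporter Slc13a3 by 3.16. The 11 carriers that were not called included the sulfate transporter Slc13a1, with a log2 difference of 0.53, the facilitative glucose transporter Slc2a1 with 0.02 and the glucose cotransporter Slc5a1 with -0.30.

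Of the genes of endocytosis and the brush border 12 of 26 were lower, with a median of -0.95, and none were higher. Lrp2 encodes megalin, the receptor that takes up filtered proteins, and it ran from 387 to 809.7 CPM (median 590.1) and from 88.8 to 129.5 CPM (median 99.6), a log2 difference of -2.56 ± 0.18. Its partner Cubn fell by 1.97 and the peptidase Dpep1 by 2.90. The membrane-cytoskeleton linker Ezr (0.22), the neutral endopeptidase Mme (0.10) and the angiotensin-converting enzyme Ace (-0.39) were not called. Among transcription factors and related genes of proximal tubule identity, 10 of 16 were lower with a median of -1.19. Hnf4a, a nuclear receptor needed for proximal tubule maturation, ran from 415 to 543 CPM (median 519) and from 119.8 to 205 CPM (median 167), a log2 difference of -1.61 ± 0.13. Ppara, a regulator of fatty acid oxidation, fell by 2.09 and its coactivator gene Ppargc1a by 1.38.

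Gluconeogenesis and the citrate cycle were lower in 22 of 25 genes, with a median of -1.47. G6pc, the glucose-6-phosphatase that releases glucose, ran from 359 to 615 CPM (median 469.7) in the contralateral libraries and from 17.8 to 28.6 CPM (median 22.3) at day 5, a log2 difference of -4.37 ± 0.28. Pck1, the cytosolic phosphoenolpyruvate carboxykinase, ran from 1357 to 3021 CPM (median 1983) and from 128 to 635 CPM (median 160.2), a log2 difference of -3.40 ± 0.30. The mitochondrial form Pck2 was the 1 member of the list called higher, at 1.17 ± 0.13. Fbp1, a fructose bisphosphatase, fell by 3.11. Glycolysis genes had no common direction, with 4 higher and 4 lower of 21 and a median of -0.39, or 0.04 with libraries scaled by totals. Hexokinase gene Hk2 ran from 0.105 to 0.773 CPM (median 0.286) and from 3.52 to 9.19 CPM (median 7.40), a log2 difference of 4.15 ± 0.36. The neuronal enolase gene Eno2 rose by 1.81 and the lactate exporter Slc16a3 by 1.54, while the lactate dehydrogenase genes Ldha (-0.49) and Ldhb (0.40) were not called. Gapdh, Pgk1 and Pgam1 were called lower, but they have many near-identical copies in the genome and their counts are uncertain.

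Enzymes of amino acid and xenobiotic metabolism were lower in 32 of 39 cases, with a median of -2.04, and only 2 were called higher. Those were Cyp27b1, which makes active vitamin D, at 1.58, and the glucuronosyltransferase Ugt2b37, at 1.06. The largest falls of the list were those of Bhmt (betaine-homocysteine methyltransferase) at -5.79, the glycine decarboxylase Gldc at -4.53, Hpd of tyrosine breakdown at -4.05 and Gatm of creatine synthesis at -3.60. Bhmt was low in contralateral males, with 1.12 CPM in library 3 and 2.00 CPM in the nearest male library. Miox, the myo-inositol oxygenase of the kidney, went from 4271 ± 1063 to 533 ± 227 CPM (mean and SD). Fatty acid oxidation was lower in 29 of 38 genes with a median of -1.51. The medium-chain acyl-CoA synthetase Acsm2 fell by 2.89 and the thiolase Acaa2 by 2.55. Cpt1c, the brain-type member of the carnitine palmitoyltransferase family, was the 1 called rise, and ran from 0 to 0.349 CPM (median 0.211) and from 1.64 to 2.77 CPM (median 1.93), a log2 difference of 3.46 ± 0.38 at a low level. Nuclear-encoded subunits of the respiratory chain were lower in 29 of 40 cases, with a median of -1.21, and with libraries scaled by their totals alone in 8. Mitochondrially encoded transcripts were lower in 9 of 10 cases with a median of -1.90. Whether total RNA was taken before or after the lysate was cleared of mitochondria was not given.

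Promoter sequences of genes that fell are shown for the motifs of 2 hepatocyte nuclear factors, which are known to act on proximal tubule genes. Windows of 300 bases (250 before to 50 after each start) came from RefSeq (GRCm38.p6) and matched 11734 of the 16782 tested genes, with 14968 windows. The HNF4 motif AAAGTCCA, searched on both strands, was found in 1.20% of all windows, 1.42% of those of higher genes and 2.43% of those of lower genes. The HNF1 motif GTTAATNAT was found in 0.568% of all windows, 0.588% of those of higher and 1.67% of those of lower genes. This motif was in 0 of 43 windows of the lower carriers and 0 of 26 of the lower genes of fatty acid oxidation. Among lower genes it was in 1 of 32 windows of amino acid and xenobiotic metabolism and 1 of 16 of endocytosis and brush border. Among the higher acute phase and plasma protein genes it was in 2 of 14 (14.3%). Among the lower enzymes of amino acid and xenobiotic metabolism 5 of 32 windows held the HNF4 motif, and 2 of these are overlapping windows of Agxt2 with the same match. It was in 1 of 43 windows of the lower carriers and 0 of 26 of the lower genes of fatty acid oxidation, and in 3 of 16 (18.8%) of the higher genes of antigen presentation. The 150 bases before the start are printed 5′ to 3′ on the gene's strand, with the match, in either orientation, in capitals. Agxt2 (mitochondrial aminotransferase, log2 difference -2.10 ± 0.12) and Hgd (homogentisate dioxygenase, -2.07 ± 0.23) hold the HNF4 motif. Cdhr2 (a cadherin of the brush border, -1.31 ± 0.22) and Prodh2 (hydroxyproline dehydrogenase, -1.67 ± 0.28) hold the HNF1 motif. Fga, the fibrinogen alpha chain, also holds it and rose, by 2.29 ± 0.39. A match is a description of letters and not of binding.
Agxt2 (chr15:10358383-10358532, plus strand): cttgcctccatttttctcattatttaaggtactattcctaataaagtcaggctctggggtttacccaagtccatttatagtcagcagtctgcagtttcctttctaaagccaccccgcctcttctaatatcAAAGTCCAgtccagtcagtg
Hgd (chr16:37580003-37580152, plus strand): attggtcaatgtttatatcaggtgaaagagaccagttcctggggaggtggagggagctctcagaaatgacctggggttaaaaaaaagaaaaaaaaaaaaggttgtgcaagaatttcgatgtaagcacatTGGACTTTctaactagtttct
Cdhr2 (chr13:54701313-54701462, plus strand): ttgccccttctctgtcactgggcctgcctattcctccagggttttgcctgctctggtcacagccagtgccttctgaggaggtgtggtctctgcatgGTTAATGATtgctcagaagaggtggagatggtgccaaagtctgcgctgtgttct
Prodh2 (chr7:30493508-30493657, plus strand): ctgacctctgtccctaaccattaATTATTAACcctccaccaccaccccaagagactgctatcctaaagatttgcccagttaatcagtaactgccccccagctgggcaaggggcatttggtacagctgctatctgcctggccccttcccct
Fga (chr3:83026003-83026152, plus strand): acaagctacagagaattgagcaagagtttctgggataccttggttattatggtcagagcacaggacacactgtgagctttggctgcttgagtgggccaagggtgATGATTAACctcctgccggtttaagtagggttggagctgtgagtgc

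The segments beyond the proximal tubule differed among themselves. Genes of the distal convoluted and connecting tubule were lower in 10 of 15 cases, with a median of -2.13. Pvalb, the calcium buffer parvalbumin of the early distal convoluted tubule, ran from 43.5 to 147 CPM (median 85.3) in the contralateral libraries and from 0 to 0.273 CPM (median 0.0892) at day 5, a log2 difference of -9.35 ± 0.71 (adjusted p = 6.3e-09), or -10.17 without female day 5 library 1. It showed the largest called fall of all genes at 5 CPM or more. Calb1, the calbindin of the same segments, ran from 1322 to 3944 CPM (median 2843) and from 87.1 to 169 CPM (median 140.4), a log2 difference of -4.21 ± 0.28. Kl, the FGF23 co-receptor klotho, fell by 2.90 and the kallikrein Klk1 by 4.07. The thiazide-sensitive cotransporter Slc12a3 of the same segment had -0.98 and was not called, nor was the calcium channel Trpv5, at 0.92.

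In the loop of Henle 2 genes were higher and 7 lower of 15, with a median of -0.85. Umod encodes uromodulin, the main protein of normal urine, and it ran from 336 to 1211 CPM (median 668) and from 506 to 881 CPM (median 631). The groups overlapped, and the log2 difference of -0.25 ± 0.16 was not called and became 0.18 with libraries scaled by totals. Egf, made by the same cells, ran from 137 to 612 CPM (median 248) and from 13.0 to 21.5 CPM (median 17.2), a log2 difference of -4.09 ± 0.41. Cldn14, a tight junction protein that lowers calcium uptake, was called higher at 4.19, as was Cldn19 at 1.09. Principal cell genes were lower in 7 and higher in 1 of 13 cases, with a median of -1.07. The water channel Aqp2 ran from 16.3 to 45.9 CPM (median 19.7) and from 2.57 to 20.5 CPM (median 6.73), a log2 difference of -1.69 ± 0.43, and the groups overlapped. It was no longer called when 2-fold was made the null hypothesis of the test. Intercalated cell genes were lower in 8 of 14 cases with a median of -1.19, among them the anion exchangers Slc4a1 (-2.54) and Slc26a4 (-2.04). Foxi1, the transcription factor of these cells, had -0.17 and was not called.

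Podocyte genes had a median of -0.20, or 0.25 with libraries scaled by totals, with 2 higher and 4 lower of 19. Clic5, a chloride intracellular channel family gene enriched in podocytes, fell by 1.10. Nphs1 (-0.69) and Wt1 (0.49) were not called, and Tcf21, a transcription factor also made by fibroblasts, rose by 2.66. Endothelial genes had a median of 0.66, with 6 higher and 2 lower of 25. The number higher became 10 with upper-quartile scaling and 13 with scaling by totals. The adhesion molecule Pecam1 ran from 12.6 to 20.9 CPM (median 17.6) and from 23.2 to 40.2 CPM (median 33.3), a log2 difference of 0.88 ± 0.15, just under 2-fold. The VEGF receptor genes Kdr and Flt1 fell by 1.25 and 1.12, while Vwf, stored in endothelial granules, rose by 1.61 and the apelin receptor gene Aplnr by 1.97. Of 6 tested erythrocyte genes, 1 was lower, the anion exchanger Slc4a1 named above, and none were higher.

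**Figure D2:**
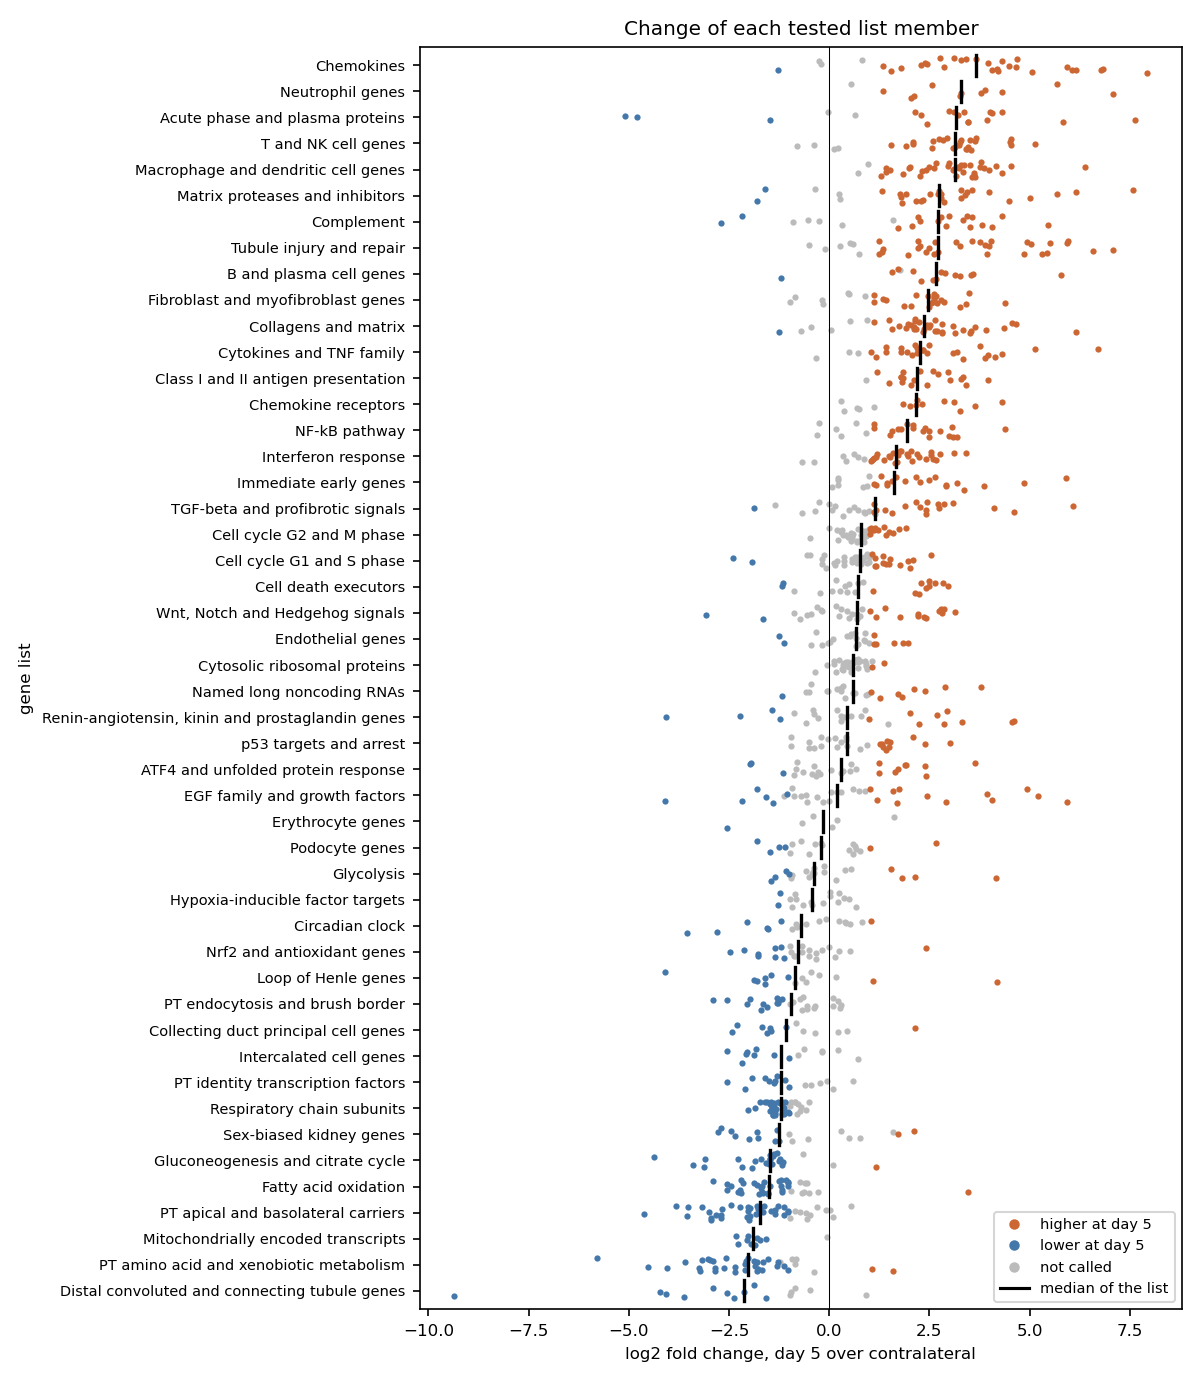
Log2 difference between day 5 and contralateral for each tested member of each gene list with at least 5 tested members; colours mark genes called higher, called lower and not called, and the black bar is the list's median. Lists of carriers, metabolism and distal segments lie below 0, and those of injury, matrix, chemokines and leukocytes above it.

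Chemokines rose in 27 of 31 tested cases, with 1 called lower. The median log2 difference was 3.65, or 3.41 with genes absent from a group set to the bound their counts allow. Ccl2, which draws monocytes, ran from 0.737 to 2.95 CPM (median 2.06) in the contralateral libraries and from 30.9 to 79.4 CPM (median 40.1) at day 5, a log2 difference of 4.68 ± 0.30. The neutrophil attractants were among the largest rises. Cxcl1 ran from 0.767 to 2.33 CPM (median 1.26) and from 43.3 to 113 CPM (median 74.4), a log2 difference of 5.93 ± 0.37, and Cxcl2 ran from 0 to 0.527 CPM (median 0.0703) and from 8.37 to 25.7 CPM (median 16.0), a log2 difference of 6.83 ± 0.39. Cxcl5 rose by 6.78, the CCR6 ligand Ccl20 by 6.05 and the mucosal chemokine Cxcl17 by 7.93. Without female contralateral library 3 the values were 7.88 for Cxcl5 and 9.45 for Cxcl17. Cxcl3 had no read in the contralateral libraries and was at least 2.61-fold higher at day 5. In each of these genes the libraries of the groups did not overlap. Cxcl12, made by stromal and endothelial cells, was the 1 chemokine called lower, at -1.27 ± 0.40. No chemokine was called lower without the 3 day 5 libraries that stood apart. The tubular and mucosal chemokines Ccl25 (-0.22) and Ccl28 (-0.25) and the B cell attractant Cxcl13 (0.81) were not called.

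Chemokine receptors rose in 10 of 15 cases, with a median of 2.18. The largest rises were those of Ccr1 (4.31), the CCL2 receptor gene Ccr2 (3.64), the CXCL1 and CXCL2 receptor gene Cxcr2 (3.27) and Cxcr3 of activated T cells (3.12). Cytokines and members of the TNF family rose in 25 of 28 cases with a median of 2.27. Il1rn, the antagonist of the interleukin-1 receptor, ran from 0.134 to 1.69 CPM (median 0.737) and from 60.5 to 135 CPM (median 69.4), a log2 difference of 6.71 ± 0.45. Interleukin-1 beta itself (Il1b) rose by 1.78, Tnf by 3.33 and Il6 by 3.75. Csf1, the growth factor of macrophages, ran from 2.53 to 5.33 CPM (median 4.11) and from 12.4 to 27.4 CPM (median 18), a log2 difference of 2.13 ± 0.18. Ifng, interferon gamma, had 1 to 3 reads in the contralateral group and was 47.6-fold higher at day 5 (95% counting interval 8.23 to 1908), with 25.9% of its exon bases shared with another gene model. In the NF-kB pathway 19 of 25 genes rose and none fell, with a median of 1.93. The subunit genes Relb (3.10) and Nfkb2 (2.33) and the inhibitor Tnfaip3 (2.49) were among them, and the kinase gene Ripk1 (-0.25) was not called.

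Macrophage and dendritic cell genes rose in 36 of 38 tested cases with a median of 3.14, and their summed level went from 219.7 to 407 CPM (median 308) in the contralateral libraries to 1481 to 2727 CPM (median 2049) at day 5. C1qa, a complement component of tissue macrophages, ran from 6.23 to 15.6 CPM (median 8.44) and from 48.2 to 202 CPM (median 103), a log2 difference of 3.52 ± 0.29. Lyz2, the myeloid lysozyme, ran from 11.6 to 49.4 CPM (median 18.8) and from 216 to 500 CPM (median 390.4), a log2 difference of 3.99 ± 0.32. Neither gene's groups overlapped. Trem2 and Gpnmb, markers of lipid-handling macrophages, rose by 4.53 and 4.16. Genes of the conventional dendritic cells of cross-presentation, Clec9a (0.71) and Xcr1 (0.97), were the 2 not called. Neutrophil genes rose in 11 of 12 tested cases, but 8 of the 20 on the list were too low to test. Those 8 included the defining granule genes Mpo, Elane, Ltf and Camp and the surface marker Ly6g. Of those tested, Lcn2 is also a tubule gene. S100a8, a calcium-binding protein of myeloid cells, ran from 0 to 3.56 CPM (median 2.20) and from 4.22 to 9.02 CPM (median 5.62), a log2 difference of 2.10 ± 0.54. That difference ranged from 1.76 to 3.60 when single libraries were left out, and was highest without female contralateral library 3.

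T and NK cell genes rose in 25 of 29 tested cases with a median of 3.15. Cd3e, a chain of the T cell receptor complex, ran from 0.172 to 1.23 CPM (median 0.469) and from 1.04 to 4.20 CPM (median 1.62), a log2 difference of 2.08 ± 0.43, with overlap between the groups. Cd3d rose by 4.54 and Cd8b1 by 4.54, both from low levels. The granzyme gene Gzmb, with 1 to 3 reads in the contralateral group, was 19.6-fold higher at day 5 (95% counting interval 5.14 to 166), and the perforin gene Prf1, on as few reads, was 12.8-fold higher at day 5 (95% counting interval 4.13 to 64.1). Trac (-0.39), Cd8a (0.12) and Gata3 (0.22) were not called. Gata3 is also made by kidney epithelium. B and plasma cell genes rose in 13 of 15 cases, with 1 lower. The median was 2.67, or 2.59 with genes at their bound. Igkc, the kappa light chain, ran from 2.44 to 94.1 CPM (median 6.30) and from 24.6 to 162 CPM (median 97.3), a log2 difference of 2.80 ± 0.93. Female contralateral library 3 had the highest control value, 94.1 CPM. The joining chain gene Jchain of secreted antibody rose by 3.58, and Blk had no read in the contralateral group and was at least 1.93-fold higher. Mast cell, eosinophil and basophil genes were too low to test in 9 of 12 cases, and none of the 3 tested were called.

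The summed levels of these lists differed in how far the groups were apart. The T and NK cell sum ran 88.8 to 154 CPM (median 114) in the contralateral and 116 to 192 CPM (median 155) in the day 5 libraries, with overlap, and Gata3 and Trac were among its most abundant members. The B and plasma cell sum ran 22.7 to 137 CPM (median 29.1) and 141 to 445 CPM (median 274) and the fibroblast sum 274 to 474 CPM (median 333) and 997 to 1384 CPM (median 1108). The neutrophil sum ran 2.08 to 10.4 CPM (median 6.61) and 117 to 438 CPM (median 191), most of it Lcn2 at day 5. The part of these cells in the rises of chemokines, cytokines, antigen presentation, complement and matrix genes was not tested.

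**Figure D3:**
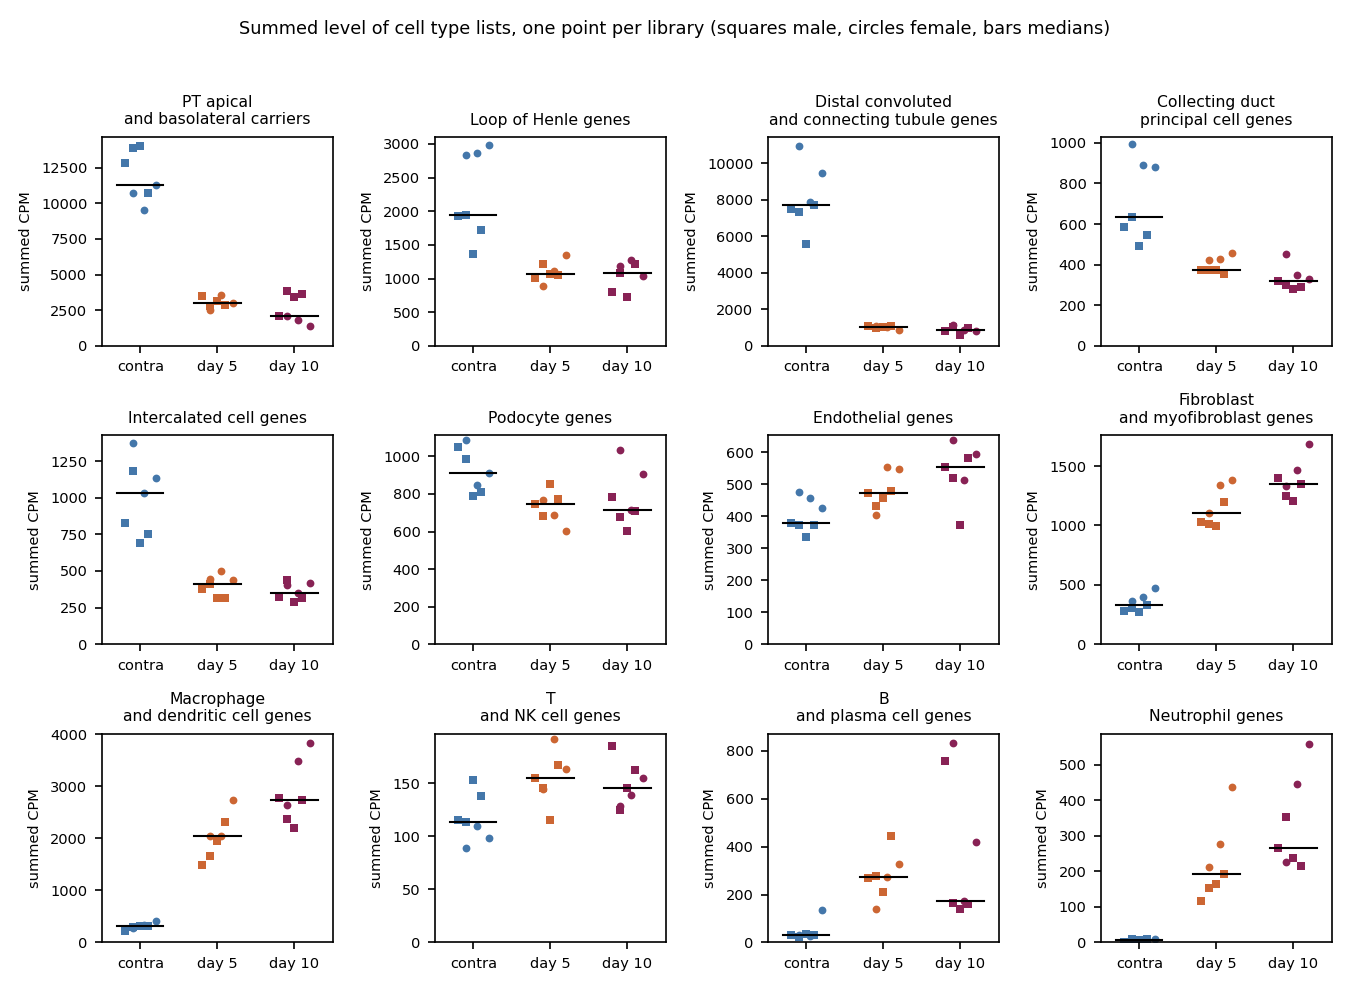
Summed level, in CPM on a linear axis, of 12 lists of cell type genes in each library of total kidney RNA; each point is 1 library, bars mark medians, and the groups are contralateral, day 5 and day 10. The sums of macrophage genes go from a median of 308 CPM in the contralateral to 2049 CPM in the day 5 libraries.

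Genes of antigen presentation rose in 19 of 20 cases with a median of 2.20. Cd74, the invariant chain of class II molecules, ran from 224 to 387 CPM (median 309) and from 2201 to 4543 CPM (median 2743), a log2 difference of 3.30 ± 0.19. The class II genes H2-Eb1 (3.40) and H2-Ab1 (3.34) rose, as did the class I genes H2-K1 (1.84) and H2-D1 (1.20), and B2m, the class I light chain, had 0.92 and was not called. Interferon response genes rose in 29 of 36 cases, with a median of 1.67 and none lower. The chemokine genes Cxcl9 and Cxcl10 rose by 3.41 and 3.11, Zbp1, a sensor of Z-form nucleic acid, by 2.75 and the antiviral GTPase gene Mx1 by 2.59. Rsad2 (-0.39) and Cmpk2 (-0.68) were not called.

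Promoters of interferon response genes are shown for a short element found in part of them. The motif TTTCNNTTT, searched on both strands, was in 14 of the 30 windows of the higher genes of this list (46.7%), against 8.37% of all windows and 10.8% of those of all higher genes. Among higher genes of other lists it was in 4 of 12 windows for cell death (33.3%). For acute phase and plasma proteins it was in 4 of 14 (28.6%), and for collagen and matrix in 1 of 26. Isg15, a ubiquitin-like protein, ran from 4.09 to 10.4 CPM (median 6.24) and from 17.0 to 41.6 CPM (median 25.2), a log2 difference of 1.96 ± 0.23. Ifit1, which binds viral RNA, ran from 4.76 to 10.8 CPM (median 6.33) and from 13.4 to 34.2 CPM (median 24.8), a log2 difference of 1.6 ± 0.21. Bst2, the membrane tether tetherin, ran from 4.92 to 10.7 CPM (median 9.21) and from 31.6 to 58.4 CPM (median 44.3), a log2 difference of 2.42 ± 0.20. No day 5 library overlapped the contralateral libraries in the 3 genes. The 150 bases before each start follow, with the element in capitals.
Isg15 (chr4:156200819-156200968, minus strand): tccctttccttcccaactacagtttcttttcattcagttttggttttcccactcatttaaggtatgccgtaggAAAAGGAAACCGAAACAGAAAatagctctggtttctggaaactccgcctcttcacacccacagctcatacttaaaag
Ifit1 (chr19:34640739-34640888, plus strand): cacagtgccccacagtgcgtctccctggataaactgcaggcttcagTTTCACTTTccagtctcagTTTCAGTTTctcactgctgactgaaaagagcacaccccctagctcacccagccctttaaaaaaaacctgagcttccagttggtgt
Bst2 (chr8:71537473-71537622, minus strand): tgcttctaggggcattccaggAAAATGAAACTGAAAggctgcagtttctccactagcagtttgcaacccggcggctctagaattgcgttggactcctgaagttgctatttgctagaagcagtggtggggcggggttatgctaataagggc

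Complement genes rose in 16 and fell in 2 of 23 cases, with a median of 2.70. C3, the central component, ran from 5.86 to 19.2 CPM (median 10.8) and from 376 to 609 CPM (median 468), a log2 difference of 5.45 ± 0.25. The properdin gene Cfp rose by 4.30 and the factor I gene Cfi by 3.82, while C4a fell by 2.71 and C8a by 2.17. C4a and C4b are near-identical copies, so how their reads were split is uncertain. Acute phase and plasma protein genes rose in 15 and fell in 3 of 20 cases with a median of 3.16. Saa1, serum amyloid A, had 1 to 3 reads in the contralateral group and was 282-fold higher at day 5 (95% counting interval 50.3 to 11179). Haptoglobin (Hp) rose by 4.32, ceruloplasmin (Cp) by 3.94 and the 3 fibrinogen chain genes Fga, Fgb and Fgg by 2.29, 3.11 and 2.44. The carrier protein genes Alb and Ttr went the other way. Alb fell by 4.80 and Ttr fell by 5.10, from 142 ± 74.4 to 3.87 ± 2.00 CPM (mean and SD).

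Collagen and matrix genes rose in 35 of 41 cases with a median of 2.35. Col1a1 of fibrillar collagen ran from 9.14 to 24.4 CPM (median 16.3) in the contralateral libraries and from 179.5 to 337 CPM (median 219) at day 5, a log2 difference of 3.90 ± 0.25. Fn1, fibronectin, ran from 3.95 to 14 CPM (median 7.39) and from 50.3 to 83.7 CPM (median 63.3), a log2 difference of 3.10 ± 0.19. For both the groups were fully separated. The collagen crosslinking enzyme gene Lox rose by 4.37, the tenascin gene Tnc by 4.65 and the fibrillin gene Fbn2 by 6.15. The basement membrane collagens split. Col4a1 and Col4a2, found in all basement membranes, rose by 1.90 and 1.98. Col4a3, of the glomerular basement membrane, fell by 1.25 and was the 1 member called lower. The elastin gene Eln had 0.95 and was not called.

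Fibroblast and myofibroblast genes rose in 22 of 29 tested cases, with none lower and a median of 2.47. Acta2, the smooth muscle actin of myofibroblasts and vessels, ran from 32.3 to 80.9 CPM (median 52.8) and from 129 to 293 CPM (median 183), a log2 difference of 1.86 ± 0.27. The receptor genes Pdgfra and Pdgfrb rose by 2.58 and 2.66, the surface glycoprotein gene Thy1 by 4.38 and the Hedgehog effector Gli1 by 2.87. Of genes of contractile vessel cells, Myh11 (-0.85), Cnn1 (-0.17) and the pericyte gene Rgs5 (-0.19) were not called. The renin gene Ren1 had 0.89 and was not called either.

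Matrix proteases and their inhibitors rose in 25 and fell in 2 of 30 cases, with a median of 2.73. Timp1, an inhibitor of metalloproteinases, ran from 0.229 to 1.84 CPM (median 0.599) and from 23.9 to 88.0 CPM (median 41.4), a log2 difference of 6.15 ± 0.35, with no overlap. Timp3, another inhibitor of the family, fell by 1.81, and 21.3% of its exon bases lie opposite Syn3. Mmp7, matrilysin, had no read in the 7 contralateral libraries and ran from 0.437 to 2.69 CPM (median 1.47) at day 5, at least 6.85-fold higher. The stromelysin gene Mmp3 ran from 0 to 0.209 CPM (median 0.0666) and from 1.26 to 5.05 CPM (median 2.88), a log2 difference of 5.01 ± 0.46. The macrophage elastase gene Mmp12 ran from 0.139 to 0.804 CPM (median 0.399) and from 2.89 to 11 CPM (median 6.34), a log2 difference of 4.00 ± 0.28. Mmp13, a collagenase from the same chromosome 9 gene cluster, ran from 0.737 to 2.86 CPM (median 1.72) and from 0.164 to 1.11 CPM (median 0.661) and fell by 1.61 ± 0.38, with overlap between the groups.

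Promoters of these 4 metalloproteinases are printed because they carry the same AP-1 element while the genes differ in direction. The motif TGANTCA reads the same on both strands, and both were searched. It was found in 5 of 21 windows of the higher genes of the list (23.8%) and in 7 of 27 windows of the higher injury genes (25.9%), against 5.70% of all windows, 8.92% of those of higher genes and 5.83% of those of lower genes. Higher genes of other lists also held it, in 3 of 10 windows for growth factors, 6 of 30 for interferon response and 4 of 20 for NF-kB. For the higher collagen and matrix genes it was 1 of 26, and for the higher fibroblast genes 0 of 13. The AP-1 subunits are named with the immediate early genes below. The 150 bases before each start follow, with the element in capitals.
Mmp3 (chr9:7445672-7445821, plus strand): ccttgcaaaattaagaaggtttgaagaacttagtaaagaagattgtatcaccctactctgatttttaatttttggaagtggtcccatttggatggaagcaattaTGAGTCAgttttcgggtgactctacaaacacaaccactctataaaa
Mmp7 (chr9:7691940-7692089, plus strand): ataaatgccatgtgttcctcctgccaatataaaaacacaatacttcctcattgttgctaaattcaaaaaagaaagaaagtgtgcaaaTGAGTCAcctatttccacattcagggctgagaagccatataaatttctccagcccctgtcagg
Mmp12 (chr9:7347224-7347373, plus strand): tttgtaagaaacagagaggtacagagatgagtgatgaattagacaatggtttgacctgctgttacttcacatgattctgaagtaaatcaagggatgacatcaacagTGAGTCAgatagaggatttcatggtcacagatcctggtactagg
Mmp13 (chr9:7272364-7272513, plus strand): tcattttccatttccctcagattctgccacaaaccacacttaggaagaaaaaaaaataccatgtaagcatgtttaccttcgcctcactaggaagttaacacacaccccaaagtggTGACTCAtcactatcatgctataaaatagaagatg

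Among TGF-beta and other profibrotic signals 18 of 34 genes rose and 1 fell, with a median of 1.13. The ligand genes Tgfb1, Tgfb2 and Tgfb3 rose by 2.43, 2.25 and 2.41. The endothelin gene Edn1 rose by 4.61, the latent TGF-beta binding protein gene Ltbp2 by 6.08 and the interleukin gene Il11 by 4.11. Bmp7, an epithelial member of the family that opposes TGF-beta, fell by 1.88. The intracellular mediators Smad2 (0.72) and Smad3 (0.87) and the inhibitor Smad7 (-0.25) were not called. In the Wnt, Notch and Hedgehog list 13 rose and 2 fell of 33, with a median of 0.70. The ligand genes Wnt10a (3.15), Wnt7a (2.81) and Wnt4 (2.43) were higher, as was the Wnt target Nkd1 (2.78), while another target, Axin2 (-0.46), was not called. Shh, the Hedgehog ligand, fell by 3.07. In the list of the EGF family and other growth factors 12 rose and 6 fell of 33, with a median of 0.18. Within it Egf fell by 4.09 while Areg rose by 5.92, and the receptor genes Egfr (-0.16), Erbb2 (0.18) and Erbb3 (-0.30) were not called. Ereg had no read in the contralateral libraries and was at least 1.22-fold higher. Igf2 fell by 2.17, although 62.8% of its exon bases are shared with an overlapping gene model.

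Immediate early genes rose in 19 of 26 tested cases, with a median of 1.62 and none lower. Among the AP-1 subunits Fos rose by 2.90, Junb by 3.19, Fosl2 by 2.63 and Jun by 2.15. Fosl1 had 4.86, but 57.2% of its exon bases lie opposite Ccdc85b. Egr1 rose by 3.87, Egr2 by 5.91 and the growth regulator Myc by 3.36. The phosphatase genes Dusp1 (0.22) and Dusp6 (0.23), induced by the same kinases, were not called.

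Of 42 cell cycle genes of G1 and S phase 14 were higher and 2 lower, with a median of 0.76. Of 40 genes of G2 and M phase 13 were higher, with a median of 0.78. That number was 25 without female contralateral library 1, 7 without library 2 of that group and 8 without library 3. Mki67, a marker of cycling cells, ran from 6.32 to 28.6 CPM (median 8.33) and from 12 to 31.3 CPM (median 16.2), and the log2 difference of 0.69 ± 0.29 was not called. Female contralateral library 1 had the highest contralateral value, 28.6 CPM, and without it the log2 difference was 1.16 and was called. Top2a, the mitotic topoisomerase, ran from 8.93 to 38.5 CPM (median 13.9) and from 20.9 to 52.5 CPM (median 34.4), a log2 difference of 1.04 ± 0.27. Ccnd1, the cyclin of G1, fell by 2.39, with 23.4% of its exon bases opposite another gene. Promoters of the higher G2 and M phase genes held the CHR element TTTGAA in 9 of 12 windows (75.0%), against 12.6% of all windows and 14.4% of those of higher genes. Among the higher acute phase and plasma protein genes it was in 6 of 14 (42.9%).

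Targets of p53 and arrest genes rose in 10 of 26 tested cases with a median of 0.43. Cdkn1a, the cell cycle inhibitor p21, ran from 27.0 to 84.2 CPM (median 55.3) and from 89.9 to 284 CPM (median 129), a log2 difference of 1.42 ± 0.26, which was not called against a null hypothesis of 2-fold. Cdkn2b, another inhibitor, rose by 3.01, while Mdm2 (0.14) and Bax (0.41) were not called. Cell death genes rose in 10 and fell in 2 of 23 cases with a median of 0.72. The rises included genes of necroptosis and pyroptosis, with Casp4 at 2.97, Gsdmd at 2.83, Ripk3 at 2.48 and Mlkl at 2.48. The apoptotic caspase gene Casp8 (0.44) was not called.

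Stress pathways were mixed. Of 27 ATF4 and unfolded protein response genes 9 rose and 3 fell, with a median of 0.29. Atf3 rose by 3.63 and the asparagine synthetase gene Asns by 2.40, while the chaperone gene Hspa5 (-0.66) was not called. Nrf2 and antioxidant genes were higher in 1 and lower in 8 of 24 cases, with a median of -0.77. Gpx3, the plasma glutathione peroxidase made in the proximal tubule, lost more CPM than any other gene. It ran from 50036 to 89020.2 CPM (median 66302) in the contralateral libraries and from 10792 to 27452 CPM (median 13204) at day 5, a log2 difference of -2.12 ± 0.24. Slc7a11, the cystine importer, was the 1 member that rose, by 2.41. Hypoxia-inducible factor targets were lower in 2 of 17 cases and higher in none, with a median of -0.43, or 0.01 with libraries scaled by totals. Vegfa had -0.94 and was not called.

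Of the renin-angiotensin, kinin and prostaglandin list 9 were higher and 4 lower of 26. The inducible cyclooxygenase gene Ptgs2 had 1 to 3 reads in the contralateral group and was 20.2-fold higher at day 5 (95% counting interval 6.66 to 100). The prostaglandin receptor genes Ptger2 and Ptger4 rose by 2.87 and 2.24, while the constitutive cyclooxygenase gene Ptgs1 (0.18) was not called. The angiotensin receptor genes Agtr1a and Mas1 fell by 1.22 and 2.22. Cytosolic ribosomal protein genes were higher in 2 of 36 cases, with a median of 0.60, and in 18 with libraries scaled by totals; many have near-identical copies. Of 1139 long noncoding RNAs tested, 216 were called higher and 196 lower. Among 23 named ones 8 rose, including H19 (2.39), the stromal Dnm3os (2.11) and Mir155hg (2.88), host of a miRNA of activated leukocytes. Rmrp had 1 to 3 reads in the contralateral group and was 16.9-fold higher at day 5 (95% counting interval 4.4 to 144), with 44.1% of its bases opposite Ccdc107. The largest rises of long noncoding RNAs at 1 CPM or more were those of Gm15867, 4932411K12Rik (4.91) and D630011A20Rik (4.81). Gm15867 was 50.4-fold higher at day 5 (95% counting interval 17.0 to 246) and lies antisense to Sertad4, so the reads of both cannot be told apart. The largest falls were those of Gm12326 (-4.83), Gm12962 (-4.72) and Dtnbos (-4.66), the last antisense to Dtnb.

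Beyond the lists, the largest rises among genes at 5 CPM or more included Il1f6, an interleukin-1 family cytokine, at 8.47 ± 0.56, the GTPase-activating protein family gene Arhgap36 at 8.20 ± 0.44 and the adhesion receptor gene Adgra1 at 7.75 ± 0.50, or 8.58 without male contralateral library 4. Il1f6 ran from 0 to 0.860 CPM (median 0.201) and from 42.6 to 288 CPM (median 56.9). Ear2, an eosinophil-type ribonuclease also made by monocytes, had 1 to 3 reads in the contralateral group and was 377-fold higher at day 5 (95% counting interval 104 to 3114). The largest falls after Pvalb included Gm28438 at -8.38 ± 1.61 (-7.62 without female contralateral library 3), the cadherin Fat2 at -6.10 ± 0.45, the cytochrome gene Cyp2d12 at -5.85 ± 0.52, Larp1b at -5.75 ± 0.24, the lipid kinase gene Pik3c2g at -5.29 ± 0.47 and the phosphodiesterase gene Pde6a at -5.26 ± 0.61. Gm28438 is a pseudogene, and 1 contralateral library, male 1, was at 0.268 CPM. Cyp4b1-ps2, also a pseudogene, had -5.97 (-6.96 without female day 5 library 1), and its reads may be shared with Cyp4b1, which fell by 3.21. In CPM, the largest gains after Spp1 were those of Gm42418, which lies almost wholly opposite another gene model, and Malat1, which were not called at 0.32 and 0.39, and of Actb, Tmsb4x, Cd74 and Clu. Tmsb4x, which binds actin monomers, rose by 1.99. Actb had 1.49 and fell under the 2-fold mark, to 0.80, without male day 5 libraries 1 and 2, where it was at 10235 and 13772 CPM against 2444 to 4603 in the other day 5 libraries. The largest losses after Gpx3 included those of the ferritin gene Fth1 (-1.46), mt-Rnr2 (-1.72), the aldehyde reductase gene Akr1a1 (-1.90), mt-Cytb (-1.84), Fbp1 and Miox.

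**Figure D4:**
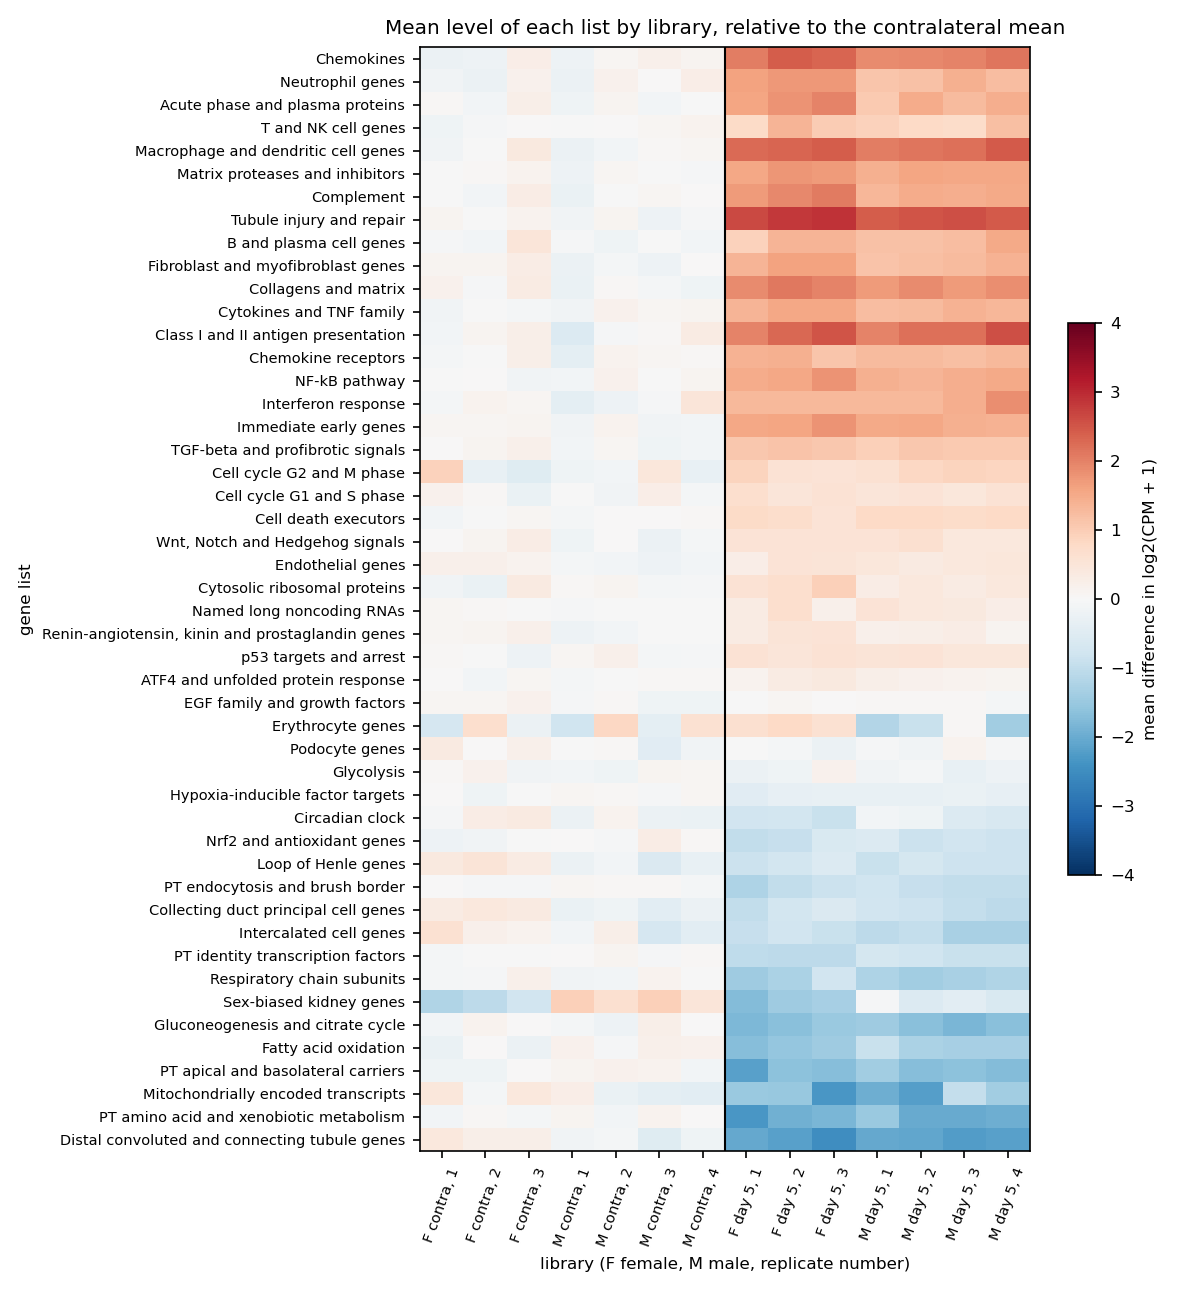
Mean difference of each gene list in each of the 14 libraries from the contralateral mean, on the log2(CPM + 1) scale; rows are lists and columns libraries. All 7 day 5 libraries lie below the contralateral ones for distal convoluted tubule genes, from -2.49 to -2.05, and all contralateral libraries lie between -0.47 and 0.42.

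The response was compared between the sexes by the difference of the female and the male log2 change. Of 16782 genes, 99 (0.59%) were called, 57 (0.34%) with a higher change in females and 42 (0.25%) with a higher change in males. Males had 5555 called genes and females 4600, with 3542 called in the same direction in both. The male count rests on 4 libraries a side and the female on 3, so they do not compare the size of the response. For several of the largest differences the contralateral means of the sexes were far apart. Kynu, the kynureninase of tryptophan breakdown, averaged 3.98 to 6.28 CPM in males and 61.9 to 8.11 CPM in females (contralateral to day 5), a difference of -3.57 ± 0.42. Ugt1a2, a glucuronosyltransferase, averaged 0.890 to 0.482 CPM in males and 148 to 7.37 in females, a difference of -3.45 ± 0.66, and it shares exons with the other genes of its locus. Cyp4a12a, a male-biased cytochrome, averaged 259 to 65.0 in males and 7.80 to 46.2 in females, a difference of 4.59 ± 0.62. In these genes the day 5 levels of the sexes were closer together than the contralateral levels.

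Ctxn3 averaged 82.0 to 3.31 CPM in males and 1.19 to 4.23 in females, a difference of 6.44 ± 1.17, the largest of those at 5 CPM or more. Il34, a second ligand of the CSF1 receptor, averaged 50.2 to 72.6 in males and 5.43 to 78.1 in females, a difference of 3.33 ± 0.44. The T cell receptor gene Trac (4.04 ± 0.61), 0610031O16Rik (3.89 ± 0.66) and Gm15895 (3.66 ± 0.46), which overlaps Il34 on the other strand, also had a higher change in females. Per3, a clock gene, averaged 5.77 to 20.7 in males and 19.9 to 3.94 in females, a difference of -4.15 ± 0.67. Gjb6 (-3.73 ± 0.78), the chloride channel gene Clic6 (-3.56 ± 0.74) and Dtnbos (-3.37 ± 0.75) had a lower change in females. Of the 18 clock genes tested, 7 were called for a sex difference, and time of day was not given. In the equal-weight mean 1 clock gene was higher and 6 lower, among them Hlf (-3.54) and Ciart (-2.81). Of 19 genes listed for sex bias in kidney, 5 were called for a sex difference, 2 were higher at day 5 and 10 lower. Without male day 5 libraries 1 and 2, 8 of the 12 genes with the largest differences were called, and Ctxn3, Gjb6, Clic6 and Dtnbos were not. The 99 became 34 without those libraries, 12 without female day 5 library 3 as well, 304 by DESeq2 and 179 with the replicate number as a block. It became 164 without female day 5 library 1, and 54 to 65 without any 1 of female day 5 libraries 2 and 3, male day 5 libraries 2 and 3 and male contralateral library 3. At an unadjusted p under 0.05 there were 2402.

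**Figure D5:**
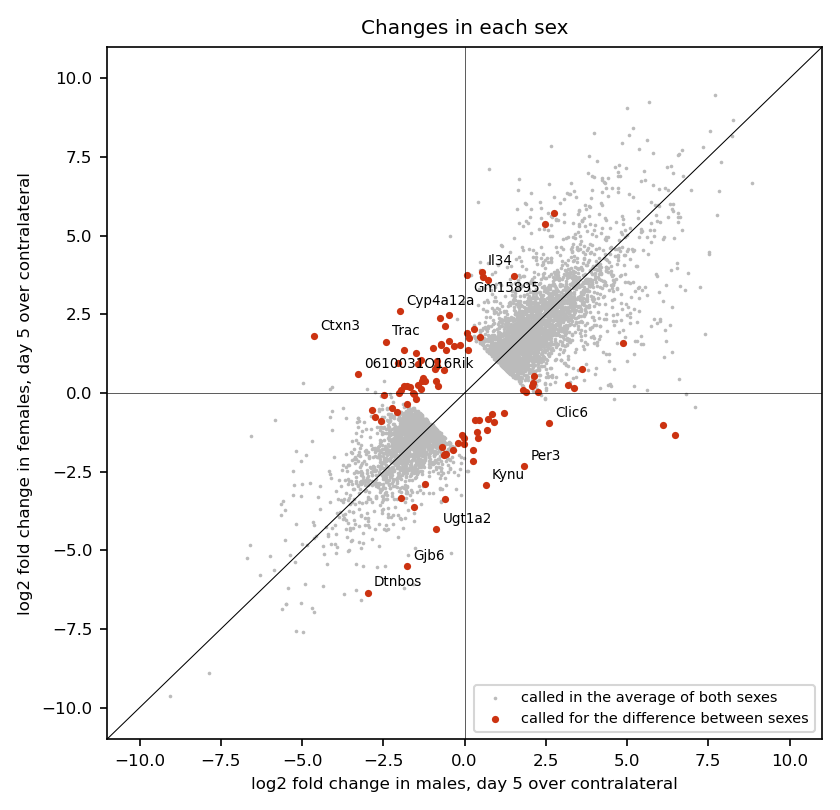
Log2 difference between day 5 and contralateral in males (x axis) and females (y axis) for called genes; grey points are called in the mean of the sexes, red points are called for a difference between the sexes, and 12 are labelled. Tested genes called in neither way are not drawn. The called genes lie along the diagonal, with Ctxn3 and Cyp4a12a above it and Per3 and Gjb6 below it. Grey genes were picked by the mean of the plotted values, so their agreement in sign is in part fixed by that choice.

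The day 10 libraries of total RNA were compared with the day 5 libraries to see how far the day 5 pattern held. Of 16782 genes, 66 (0.393%) were called, 59 (0.352%) higher at day 10 and 7 (0.0417%) lower, and 1930 had an unadjusted p under 0.05. Lyz1, a lysozyme whose reads may be shared with its near-identical copy Lyz2, averaged 0.390 to 7.37 CPM (day 5 to day 10), a log2 difference of 4.15 ± 0.43, and Retnla, a marker of alternatively activated macrophages, averaged 2.24 to 29.3, a log2 difference of 3.74 ± 0.48. The B cell attractant Cxcl13, not called at day 5, averaged 1.04 to 12, a log2 difference of 3.53 ± 0.56. Penk (2.15 ± 0.43), the natriuretic peptide clearance receptor gene Npr3 (2.08 ± 0.29) and Mmp12 (1.93 ± 0.21) were also higher at day 10. Xirp2 (-1.69 ± 0.31), Gsta2 (-1.41 ± 0.31), Hmga1 (-1.29 ± 0.26), Cyp4a12b (-1.29 ± 0.20) and Prrg4 (-1.05 ± 0.24) were lower. Lars2 was at 1904 (male library 3) to 34159 CPM (median 27066) in the day 10 libraries, against a median of 8571 CPM at day 5, and its part in these differences was not tested. The 66 became 18 without male day 5 libraries 1 and 2. Of the 11 genes named here 7 were then called, and Penk, Gsta2, Hmga1 and Prrg4 were not. The 66 became 13 without female day 5 library 3 as well, 40 with a filter of 5 CPM in 3 libraries and 158 by DESeq2. Leaving out any 1 of the female day 5 libraries, male day 5 libraries 1, 2 and 3, female day 10 library 3 or male day 10 library 4 gave 17 to 38, and leaving out any other single library gave 51 to 95.

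The day 5 difference in total RNA was set against that in the PT libraries, which may come from the same kidneys. Of 17110 genes tested, 730 (4.27%) were called for a difference between the 2 responses, 517 (3.02%) with a higher change in PT and 213 (1.24%) with a higher change in total RNA. Of 37 tubule injury genes, 12 had a higher change in PT and 3 in total RNA. Havcr1 changed by 7.29 in PT and, in the fit of total RNA alone, by 5.42 (log2), and the fit of both kinds of library gave a PT minus total difference of 1.84 ± 0.31. Vcam1 (2.17 ± 0.30), Sox9 (3.34 ± 0.63) and Cd44 (1.94 ± 0.41) likewise had a higher change in PT, while Lcn2 (-2.88 ± 0.52) and Krt19 (-3.28 ± 0.40) had a higher change in total RNA. The PT excess at 5 CPM or more was largest for the metalloreductase gene Steap4 (5.74 ± 0.91), the G protein regulator Rgs4 (4.73 ± 0.61), Rasd2 (4.20 ± 0.42), Pik3r5 (4.17 ± 0.81), the p38 kinase gene Mapk11 (4.08 ± 0.38) and Slc44a3 (3.98 ± 0.37). The excess in total RNA was largest for Ear2, Arhgap36 (-5.55 ± 0.85), Slco2b1 (-4.04 ± 0.34), the guanylate cyclase genes Gucy1a3 (-3.95 ± 0.29) and Gucy1b3 (-3.79 ± 0.38) and Plbd1 (-3.70 ± 0.29). Ear2 rested on 1 to 3 contralateral reads, so its fitted difference is not given.

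Of 38 macrophage and dendritic cell genes, 3 had a higher change in PT and 1, the CSF1 receptor gene Csf1r (-1.61 ± 0.25), had a higher change in total RNA. Genes of leukocytes and stroma rose in PT as well. Median changes in PT and total RNA were 2.90 and 3.14 for macrophage, 2.13 and 2.35 for collagen and 1.93 and 2.47 for fibroblast genes. For T and NK cell genes they were 1.68 and 3.15, and for B and plasma cell genes 1.48 and 2.67. How much RNA of other cells the PT libraries held was not tested. Of 29 fibroblast genes, 4 had a higher change in PT and 1 in total RNA. Cytokine genes were divided 3 and 3, with Csf1 (1.68 ± 0.36) higher in PT and the interleukin gene Il33 (-1.61 ± 0.25) higher in total RNA. Of 41 collagen and matrix genes, 1, Fn1 (1.05 ± 0.29), had a higher change in PT and 3, among them Col8a1 (-3.69 ± 0.27) and Col12a1 (-3.23 ± 0.32), had a higher change in total RNA. Of 15 B and plasma cell genes, 2 had a higher change in total RNA, among them Cd22 (-3.85 ± 1.15). Ccl2 (1.30 ± 0.38) had a higher change in PT. None of the 47 carriers was called for a difference between PT and total RNA, and their median change was -1.40 in PT and -1.73 in total RNA. Hk2 (2.84 ± 0.80), Eno2 (2.89 ± 0.65) and the pyruvate kinase gene Pkm (2.07 ± 0.27) of glycolysis had a higher change in PT. Pkm had -0.13 in total RNA and was not called there.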

How the data were processed

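The authors deposited a table of raw counts per gene, with whole numbers for 40701 gene symbols in 42 libraries, and a table of RPKM values for the same libraries. The deposited RPKM values matched the counts divided by library size and a fixed length per gene to within a relative deviation of 0.000287 over 25270 genes. Per the submitters' processing notes, STAR 2.0.4b, Subread and featureCounts 1.4.5 were used. The genome build, the annotation and the strand setting were not given in the sources used here, so reads of overlapping or antisense genes cannot be told apart. Exon overlaps were taken from GENCODE M21 by symbol.

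The deposited counts were fitted with edgeR 4.0.16 in R 4.3.3 over the 21 libraries of total RNA, with a group for each sex and day, TMM factors, genes kept by filterByExpr, and robust quasi-likelihood tests. P-values were adjusted by the Benjamini-Hochberg method over all tested genes. A call needed an adjusted p under 0.05 and at least a 2-fold difference. The standard error of a log2 difference is its size divided by the square root of F, which is approximate. The difference between PT and total RNA was fitted over both kinds of library. For genes without reads in a group, a fold is a lower bound against 3 counts in a library of mean size. With 1 to 3 counts the ratio is given with its exact 95% Poisson interval, which covers counting error only. Promoter windows were matched by symbol. Motifs of STAT, CRE, E2F and TEAD and the CCAAT box were searched as well, and no motif share was tested. The TEAD motif GGAATG was in 7 of 27 windows of the higher injury genes, against 12.6% of all windows. CCAAT was in 12 of 16 windows of the higher antigen presentation genes, against 36.8% of all. The test was checked on simulated data with known changes. Few genes were changed there, as many up as down, so that check cannot speak to the choice of library scaling.

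Gene lists and members were chosen with earlier results of these data known, and give no independent support. The genes named were 23 markers, the 10 largest called rises and falls at 5 CPM or more without overlap within either sex, the 8 largest gains and losses in CPM, the leading and most abundant members of each of 49 lists, the 6 largest differences each way between sexes, fractions and days, and the 3 leading long noncoding RNAs each way. Other members of the lists were named where a count turned on them, with their values seen. Values of some members, 1 marker among them, are not reported here, but they stay in the counts, medians and sums of their lists. Alternatives used RLE, upper-quartile or no composition factors, other filters, DESeq2 1.42.0, limma 3.58.1 on counts (voom) or on log2(RPKM + 1), covariates, other thresholds and leaving out libraries. Leaving out the day 5 libraries that stood apart, and the replicate block for the sex difference, were chosen after seeing the data. No libraries were duplicates of each other.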

Additional observations from a re-analysis of the deposited data

Results flagged for a closer look

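Among 124 values tested in the male groups of 4 libraries, 6 had 1 library far from the other 3, where chance flags about 1 in 20 groups. In the contralateral group Krt20 was at 3.27 CPM in male library 2 (nearest 1.34), Bhmt at 1.12 CPM in male library 3 (nearest 2.00) and Pde6a at 14.2 CPM in male library 4 (nearest 8.77). Adgra1 was at 0.0666 CPM in contralateral male library 4 and at 0 in the other 3. The pseudogene Gm28438 was at 0.268 CPM in contralateral male library 1, with the nearest at 15.2. Acta2 was at 224 CPM in day 5 male library 4, with the nearest at 131.

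The change at day 5 differed between the sexes, by a test of the difference itself, for 12 named genes. It was higher in females for Ctxn3 (6.44 on the log2 scale), Cyp4a12a (4.59), Trac (4.04), 0610031O16Rik (3.89), Gm15895 (3.66) and Il34 (3.33). It was lower in females for Per3 (-4.15), Gjb6 (-3.73), Kynu (-3.57), Clic6 (-3.56), Ugt1a2 (-3.45) and Dtnbos (-3.37). Without the 2 day 5 libraries of lowest Lars2, both male, 8 of the 12 were called, and Ctxn3, Gjb6, Clic6 and Dtnbos were not.

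The change differed between PT and total RNA, by the same kind of test, for 17 named genes. It was higher in PT for Steap4 (5.74), Rgs4 (4.73), Rasd2 (4.20), Pik3r5 (4.17), Mapk11 (4.08), Slc44a3 (3.98), Vcam1 (2.17), Havcr1 (1.84), Csf1 (1.68) and Ccl2 (1.30). It was higher in total RNA for Arhgap36 (-5.55), Slco2b1 (-4.04), Gucy1a3 (-3.95), Gucy1b3 (-3.79), Plbd1 (-3.70) and Lcn2 (-2.88). The fitted value of Ear2 (-6.48) rests on 1 to 3 contralateral reads and depends on the fit's prior count.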

How the results depend on the processing

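The number of genes higher at day 5 (3220) was 4816 with library size only and 2183 when tested against 2-fold. It was 1969 with a filter of 5 CPM in 3 libraries, 1944 by limma on log2(RPKM + 1), 5115 without a minimum fold and 1679 at 4-fold, and 3163 to 3333 when single libraries were left out. The number lower (2233) was 1177 with library size only, 1460 with the 5 CPM filter, 712 by limma on log2(RPKM + 1), 4744 without a minimum fold, 598 at 4-fold and 1189 when tested against 2-fold, and 2158 to 2292 when single libraries were left out. The share of higher genes among the calls was 59.1%, and 80.4% with library size only. No gene called at day 5 was called in the opposite direction under any setting. The 99 sex differences were 304 by DESeq2, 34 without both day 5 libraries of lowest Lars2 and 12 without those and female day 5 library 3. Leaving out single libraries gave 54 (without female day 5 library 2) to 164 (without female day 5 library 1). The 66 differences between day 10 and day 5 were 40 with the 5 CPM filter, 158 by DESeq2, 18 without both low-Lars2 libraries and 13 without those and female day 5 library 3. Leaving out single libraries gave 17 (without female day 5 library 1) to 95 (without female day 10 library 1). The 730 differences between PT and total RNA were 667 to 781 when single libraries were left out, 648 without both low-Lars2 libraries and 608 without those and female day 5 library 3. Umod, at -0.25, was 0.18 with library size only and 0.20 by limma on log2(RPKM + 1), and Gm42418, at 0.32, was -0.00118 (without female day 5 library 3) to 0.56 when single libraries were left out. The cause of these shifts was not tested, apart from the fewer genes or libraries that a filter or an omission leaves. Of 44 counts of list members, 36 were within 1.5 times of the value given with library size only, 27 by limma on log2(RPKM + 1), 38 with the 5 CPM filter and all 44 without both low-Lars2 libraries. G2 and M phase genes (13 higher) were 29 with library size only, 20 with the replicate block and 5 with a clock score as covariate. B and plasma cell genes (13 higher) were 8 with the clock score. The labels do not say that a replicate number marks a shared animal or day. The deviations of same-numbered libraries had correlations of -0.02 to 0.15, over 0.1 in 2 of 7, with 3 of 7 libraries correlating best with their own number. With the number as a replicate block, 5231 genes were called at day 5, of which 5081 were among the 5453, and 179 sex differences were called. Precision is limited by the number of libraries and by depth for genes with few reads, such as those of neutrophils and mast cells.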
